A study of Mus musculus with 27 samples.

Results

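The genes described are 9 that cells switch on within minutes to hours of a growth factor, hormone or stress signal, or that carry such signals further: the transcription factor genes *Fos*, *Jun*, *Junb*, *Jund*, *Egr1*, *Ier2* and *Cebpb* and the phosphatase genes *Dusp1* and *Dusp6*. The list was chosen by the read counts of these same libraries across vector, stage and sex, so their levels and fold changes are given as a description with no p-value. All 9 were found, each in all 4 deposited tables, among 17655 genes in all. RNA from whole liver was sequenced in 27 mice, 3 in each of 9 groups, to ask how gene expression differs after the diet and alcohol are withdrawn and when the histone demethylase gene *Kdm5b* is deleted. Every mouse, controls included, carried *Kdm5b* fl/fl. WT mice received AAV8-control, an adeno-associated virus with no Cre. KO mice received AAV8-CMV-Cre, whose promoter is not restricted to one cell type, and HepKO mice received AAV8-TBG-Cre, whose promoter is active in hepatocytes. The study's methods give mice of 7 to 8 weeks of age at the start. WDA mice, on a western diet and with alcohol to drink, comprised females given each of the 3 vectors and males given the WT or KO vector, and their labels state 8 weeks of WDA, a shorter feeding than the study's methods describe for the model. The labels are followed here, and the length of feeding in the WDA mice is uncertain. Resolution (Res) mice comprised WT and KO females and males, with 16 weeks of WDA, then the vector, then 4 weeks of resolution, which the study's methods describe as chow and plain water after a liver biopsy. The labels place the vector before the diet in the WDA mice and after it in the Res mice. All WDA mice belong to experiment 11 and all Res mice to experiment 12, so stage, the removal of alcohol, the change from western diet to chow, diet length, biopsy, vector timing and experiment cannot be told apart.

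FOS, JUN, JUNB and JUND are basic leucine zipper proteins that pair to form the AP-1 transcription factor. *Fos*, *Jun* and *Junb*, with *Egr1* and *Ier2*, are classical immediate early genes, transcribed from factors already present in the cell when the ERK, JNK or p38 MAP kinases or cAMP signalling are activated. DUSP1 and DUSP6 remove phosphate from MAP kinases, DUSP1 in the nucleus mainly from p38 and JNK, DUSP6 in the cytoplasm from ERK, and so limit the signals that induced them. C/EBPβ, encoded by *Cebpb*, drives acute phase and gluconeogenic genes in hepatocytes. In the liver this programme is known from partial hepatectomy, where it opens regeneration, and it also answers to handling of the tissue, fasting and glucocorticoids.

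The promoters of *Fos*, *Jun*, *Dusp1* and *Cebpb* are shown because these genes, 4 of the 6 with their highest group mean in Res KO females, cover the inducible AP-1 subunits, a phosphatase and C/EBPβ. Each line is the 250 bases before the RefSeq start in GRCm38.p6, on the coding strand. Capitals mark TGACG, the core of the cAMP response element, on either strand, and TGANNTCA, a longer form shared by AP-1 and CREB family factors. TGANNTCA reads the same on both strands and overlaps TGACG where the 8 bases are TGACGTCA, as in *Dusp1*.
Fos, chr12:85473640-85473889, plus strand: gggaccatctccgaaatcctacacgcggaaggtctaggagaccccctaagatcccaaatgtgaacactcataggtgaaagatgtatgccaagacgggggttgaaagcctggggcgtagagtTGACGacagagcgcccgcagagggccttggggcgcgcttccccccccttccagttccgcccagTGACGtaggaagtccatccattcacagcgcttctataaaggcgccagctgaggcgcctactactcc
Jun, chr4:95052223-95052472, minus strand: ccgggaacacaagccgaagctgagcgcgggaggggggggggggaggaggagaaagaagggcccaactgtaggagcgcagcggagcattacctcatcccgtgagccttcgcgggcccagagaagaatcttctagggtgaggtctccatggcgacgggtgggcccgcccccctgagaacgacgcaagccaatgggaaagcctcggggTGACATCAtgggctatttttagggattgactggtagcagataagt
Dusp1, chr17:26508473-26508722, minus strand: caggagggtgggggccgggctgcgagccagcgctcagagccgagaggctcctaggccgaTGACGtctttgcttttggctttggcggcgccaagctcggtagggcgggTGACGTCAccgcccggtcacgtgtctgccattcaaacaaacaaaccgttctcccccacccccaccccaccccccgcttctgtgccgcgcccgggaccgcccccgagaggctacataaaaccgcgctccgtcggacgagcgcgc
Cebpb, chr2:167688665-167688914, plus strand: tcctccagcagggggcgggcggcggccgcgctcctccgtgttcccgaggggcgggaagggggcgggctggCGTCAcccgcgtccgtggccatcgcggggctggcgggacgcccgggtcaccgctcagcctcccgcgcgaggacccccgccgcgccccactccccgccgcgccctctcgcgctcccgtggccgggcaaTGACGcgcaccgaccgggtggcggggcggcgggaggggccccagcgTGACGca
Windows were read for 7 of the 9 genes, these 4 with *Jund*, *Junb* and *Dusp6*, and *Egr1* and *Ier2* are named only. TGACG was present in 4 of the 7 windows, in *Fos* from -129 and from -66, in *Junb* from -106, in *Dusp1* from -191, -143 and -140, and in *Cebpb* from -180, -53 and -7. Over all 27025 promoters of this length, 17.9% held it. TGANNTCA was present in 3 of the 7, at -45 to -38 in *Jun*, -61 to -54 in *Jund* and -143 to -136 in *Dusp1*, and in 12.0% of all promoters. The canonical AP-1 site TGANTCA was in 0 of the 7 windows and in 6.87% of all, and the CArG box, the serum response factor site, was in 0 of the 7 and in 1.4% of all. A match of these letters is a description of the window and not evidence of binding. An absence covers these 250 bases only, since sites further from the start were not searched.

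Deposited counts summed to between 14634602 and 19388251 per library. The 9 genes were read with 15 counts (*Fos*, lowest library) to 3069 counts (*Jund*, highest library). *Kdm5b* transcript, the check on the vectors, was 16.6 to 17.4 CPM (counts relative to the library total) in Res WT females against 10.7 to 13.2 in Res KO females, but WDA KO female mouse 1 (24.1 CPM) lay within the WDA WT female range (21.5 to 31.2 CPM), and Res KO male mouse 5 (17.2 CPM) was close to Res WT males (18.8 to 19.6 CPM). In WDA males the groups lay close together, KO at 20.6, 21.9 and 22.02 CPM and WT at 23.5, 24.4 and 24.9 CPM, so the KO against WT values of WDA males compare mice with little difference in *Kdm5b* transcript. The study also stained livers for KDM5B protein, which these counts do not measure. The summed CPM of 6 hepatocyte markers was 73936 to 171847 in the 27 libraries, and no hepatocyte marker was at 0. Mouse 7 of the WDA WT females held 346 CPM of 5 recruited macrophage markers and 293 CPM of 5 stellate and fibroblast markers, against 7.49 to 7.63 and 43.4 to 54.3 in the other mice of its group. Mouse 17 of the WDA KO males held 234 and 341 CPM of the same lists. Values printed for single genes that move by over 1.5 times or change sign without one of these 2 mice are given without it as well. Mouse 13 of the Res WT females held 88.6 CPM of the recruited macrophage and 110 CPM of the stellate and fibroblast markers. The other mice of its group held 9.72 to 11.9 and 36.95 to 40.8 CPM. Values are given without this Res WT mouse only where stated. CPM values are on a single TMM scale over all 27 libraries.

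On the deposited FPKM scale, which corrects for transcript length, *Cebpb* was the most abundant of the 9 with a median of 53.6 (22.7 to 121 over 27 libraries). *Jund* followed at 22.9 (10.5 to 63.3). *Junb* at 16.5, *Dusp6* at 15.4, *Ier2* at 14.5 and *Dusp1* at 13.5 lay close together, with *Egr1* at 9.11, *Jun* at 8.32 and *Fos* last at 1.76 (0.45 to 6.70). The ranges of every pair of neighbours in this order overlapped. The spread between mice did not follow abundance. The highest library exceeded the lowest 13.7-fold in *Fos*, 13.1-fold in *Dusp1* and 12.8-fold in *Jun* on the CPM scale, but 5.73-fold in *Cebpb*, 4.19-fold in *Junb* and 2.80-fold in *Ier2*. Res KO females had the highest group mean CPM in 6 of the 9 genes (*Fos*, *Jun*, *Jund*, *Ier2*, *Dusp1* and *Cebpb*), and Res WT males the lowest in 5 (*Fos*, *Jun*, *Junb*, *Dusp1* and *Dusp6*). In whole liver, more RNA per cell and more cells of an expressing type cannot be told apart.

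**Figure D1:**
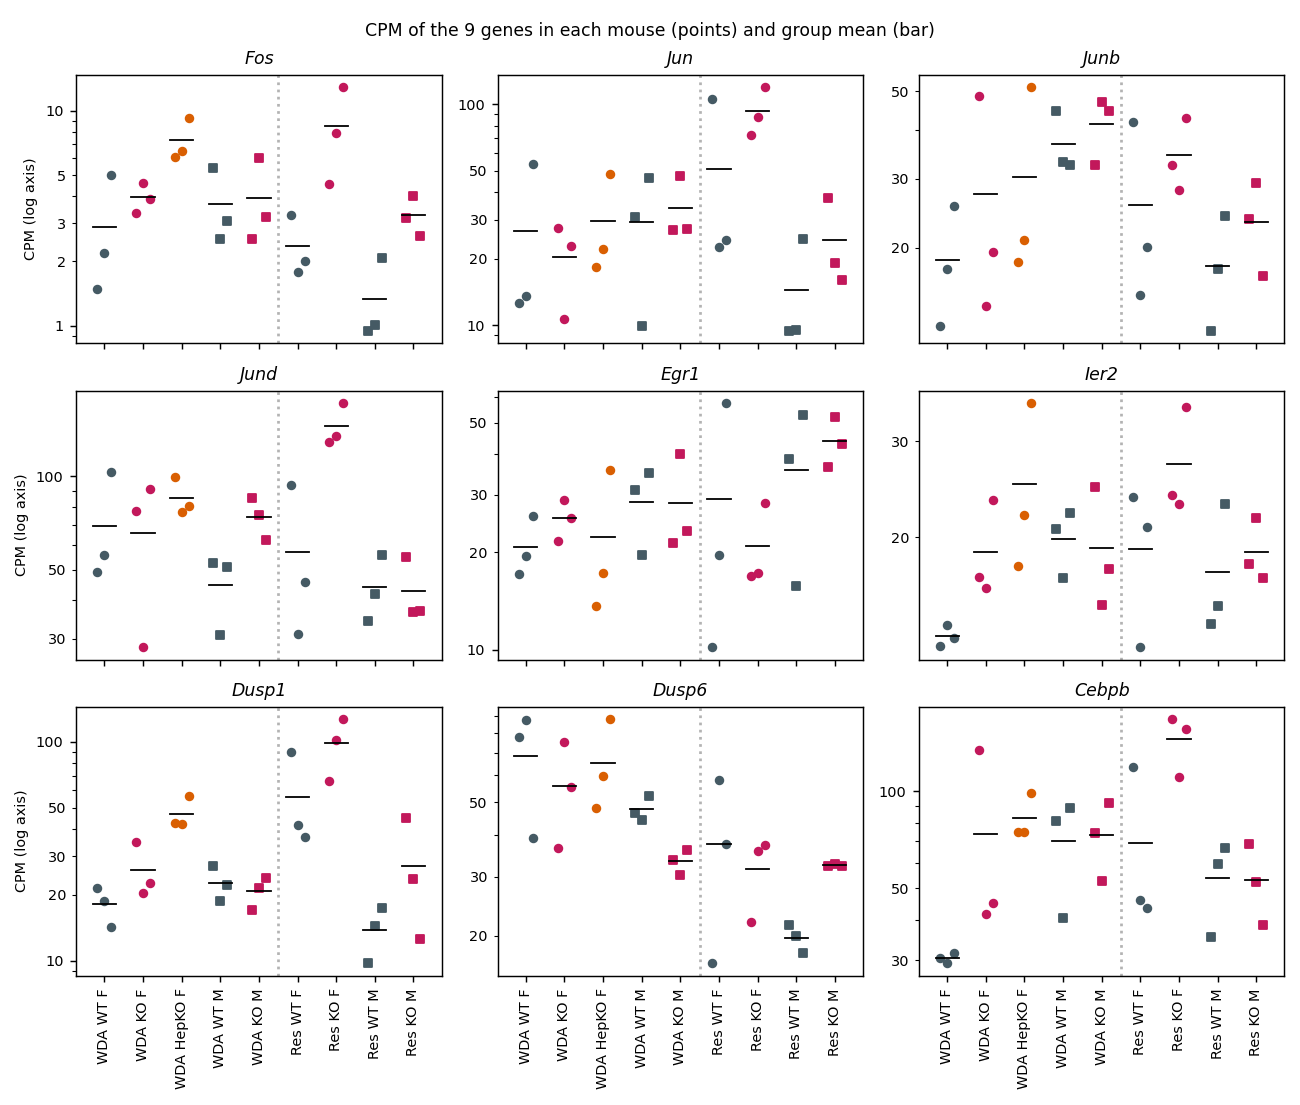
CPM (log axis) of the 9 genes in each of 27 mice, 1 point per mouse (circles females, squares males), by group, with the group mean as a bar and a dotted line between WDA and Res groups; grey is WT, magenta KO and orange HepKO. Res KO females have the highest group mean for *Fos*, *Jun*, *Jund*, *Ier2*, *Dusp1* and *Cebpb*, while *Egr1* and *Dusp6* follow other patterns.

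*Fos*, the inducible partner of the JUN proteins in AP-1, was measured at 4.58, 7.89 and 12.9 CPM in Res KO females and at 1.78, 2.003 and 3.27 CPM in Res WT females, so these groups did not overlap. The log2 fold change was 1.81 ± 0.40 (SE, n = 3 against 3), a 3.51-fold difference. Res KO males had 2.62, 3.16 and 4.00 CPM and Res WT males 0.944, 1.01 and 2.07 CPM, again without overlap, and the log2 fold change was 1.28 ± 0.38. In the WDA mice, KO and WT overlapped in both sexes, with log2 fold changes of 0.41 ± 0.46 in females, or 1.11 without WDA WT mouse 7, and 0.13 ± 0.43 in males, or -0.35 without WDA KO mouse 17. HepKO females, at 6.12, 6.49 and 9.22 CPM, all lay above the 3 WDA WT females at 1.49, 2.17 and 5.02 CPM (1.30 ± 0.46). The highest of those WT values was mouse 7, and without it the log2 fold change was 1.98. Across stages the direction depended on the group. Res WT males were below WDA WT males (2.54, 3.07 and 5.41 CPM) without overlap, by -1.41 ± 0.41, whereas Res KO females exceeded WDA KO females (3.36, 3.91 and 4.61 CPM) by 1.09 ± 0.33, with the lowest Res mouse inside the WDA range. That value was 0.65 without Res KO female mouse 4.

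*Jun*, which can act as an AP-1 dimer by itself and is the substrate that gave JNK its name, reached 72.9, 87.7 and 120 CPM in Res KO females. WDA KO females had 10.7, 22.8 and 27.5 CPM, and the log2 fold change of Res against WDA was 2.20 ± 0.30, a 4.61-fold difference and the largest of the 81 fold changes of single genes in the comparisons of 2 groups. Res WT females were split, with 22.5 and 24.3 CPM in 2 mice and 106 CPM in mouse 1. KO against WT in Res females was therefore 0.85 ± 0.55 with mouse 1 and 1.95 without it. Among WDA WT females, mouse 7 had 53.8 CPM and the others 12.7 and 13.5 CPM. Res against WDA in WT females was 0.91 ± 0.80 with mouse 7 and 1.95 without it, and HepKO against WT was 0.12 ± 0.65 with it and 1.18 without it. In males the stage difference was negative, -0.97 ± 0.55 in WT (9.38, 9.55 and 24.5 CPM after 9.92, 31.0 and 46.5 CPM) and -0.46 ± 0.36 in KO (-0.15 without WDA KO mouse 17), both with overlapping mice.

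*Junb*, an AP-1 subunit that often restrains JUN, was lower in Res than in WDA males of both vectors without overlap. Res WT males had 12.3, 17.7 and 24.0 CPM and WDA WT males 32.5, 33.1 and 44.6 CPM, a log2 fold change of -1.002 ± 0.24. KO males had 16.99, 23.7 and 29.3 CPM in Res and 32.5, 44.6 and 47.0 CPM in WDA (-0.81 ± 0.23). In females the mice of each pair of groups overlapped. Single mice were high in 3 female groups, WDA KO mouse 1 at 48.7 CPM beside 14.2 and 19.5, WDA HepKO mouse 15 at 51.4 CPM beside 18.4 and 20.9, and Res WT mouse 1 at 41.9 CPM beside 15.2 and 20.1. Without WDA KO mouse 1, Res against WDA in KO females moved from 0.33 ± 0.38 to 1.03.

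*Jund*, the AP-1 subunit expressed most constantly in resting cells, was 129, 135 and 172 CPM in Res KO females, above each of the other 24 libraries. Res WT females had 31.2, 45.9 and 94.1 CPM (KO against WT 1.32 ± 0.35), and WDA KO females 28.2, 77.5 and 90.9 CPM (Res against WDA 1.15 ± 0.34). KO males went the other way across stages, from 62.4, 75.0 and 85.3 CPM in WDA to 36.7, 37.0 and 55.1 CPM in Res (-0.77 ± 0.22). The WDA KO males also lay above the WDA WT males at 30.9, 51.1 and 52.5 CPM (0.74 ± 0.22). In Res males KO and WT overlapped, at -0.02 ± 0.23.

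*Egr1*, a zinc finger factor induced by ERK signalling through serum response elements, did not follow the AP-1 genes. Res WT females spanned 10.2, 19.6 and 57.6 CPM, which are the lowest and the highest value of the 27 libraries, and the low value was mouse 1, in which *Jun* was high. Res KO females had 16.9, 17.3 and 28.3 CPM and Res KO males 36.5, 43.1 and 52.1 CPM. Every pair of groups compared overlapped, and the KO against WT difference in Res females of -0.55 ± 0.56 became 0.45 without Res WT mouse 13. The largest *Egr1* difference was Res against WDA in KO males, at 0.65 ± 0.26, or 0.99 without WDA KO mouse 17.

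*Ier2*, a small nuclear protein induced with *Fos*, varied least. WDA WT females formed a tight low group of 12.7, 13.1 and 13.8 CPM. WDA KO females at 16.1, 16.9 and 23.4 CPM (0.49 ± 0.17) and HepKO females at 17.7, 21.96 and 35.3 CPM (0.91 ± 0.25) both lay entirely above them. These comparisons share the WT mice. In males KO and WT overlapped at both stages, at -0.05 ± 0.20 in WDA (0.09 without WDA KO mouse 17) and 0.13 ± 0.22 in Res.

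*Dusp1*, the nuclear phosphatase that is also a direct glucocorticoid target, had group means in females that were lowest in WDA WT and highest in Res KO. WDA WT females had 14.3, 18.7 and 21.5 CPM, and WDA KO females 20.4, 22.8 and 34.8 CPM. HepKO females had 42.1, 42.5 and 56.5 CPM, Res WT females 36.7, 41.6 and 90 CPM, and Res KO females 66.2, 102 and 127 CPM. Res exceeded WDA without overlap in both WT females (1.62 ± 0.36) and KO females (1.92 ± 0.26, a 3.79-fold difference). Without Res WT mouse 1 the WT value was 1.12. HepKO exceeded WT by 1.37 ± 0.19. In WT males the direction was opposite and again without overlap, 9.76, 14.5 and 17.4 CPM in Res after 18.8, 22.3 and 27.2 CPM in WDA (-0.69 ± 0.22). KO males at Res ranged from 12.7 to 45.01 CPM, with mouse 5 highest, and overlapped every male group.

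*Dusp6*, the ERK phosphatase, was the one gene of the 9 with its highest group mean in WDA WT females. They had 39.0, 78.0 and 88.0 CPM, and Res WT females 16.6, 37.6 and 58.2 CPM (-0.85 ± 0.49). Males gave tight groups: 44.3, 46.3 and 52.1 CPM in WDA WT, 30.4, 33.6 and 36.0 CPM in WDA KO, 17.8, 19.98 and 21.5 CPM in Res WT, and 32.2, 32.4 and 32.6 CPM in Res KO. Thus KO lay below WT in WDA males (-0.50 ± 0.11) and above WT in Res males (0.73 ± 0.13), with no overlap at either stage. The difference across stages was -1.25 ± 0.10 in WT males and -0.03 ± 0.14 in KO males (-0.09 without WDA KO mouse 17). The WDA value was -0.30 on library totals without TMM factors.

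*Cebpb* was 111, 157 and 168 CPM in Res KO females. Res WT females had 43.4 and 46.1 CPM and, in mouse 1, 119 CPM, so KO against WT was 1.03 ± 0.37 with mouse 1 and 1.65 without it. WDA WT females were again tight and low, at 29.3, 30.5 and 31.5 CPM. HepKO females at 74.6, 74.9 and 98.9 CPM lay above them by 1.43 ± 0.15, a 2.70-fold difference. WDA KO females at 41.6, 45.01 and 134 CPM also lay above them (1.25 ± 0.44), but the value was 0.49 without WDA KO mouse 1, the mouse whose *Kdm5b* was in the WT range. In males every pair of groups overlapped, with log2 fold changes from -0.44 ± 0.28 (Res against WDA, KO) to 0.07 ± 0.32 (KO against WT, WDA), the latter 0.25 without WDA KO mouse 17.

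In some groups the genes tended to be high in the same mouse, and in others the highest values were split between mice. Res KO female mouse 4 was the highest of its group in 8 of 9 genes, WDA HepKO female mouse 15 in 8, Res WT male mouse 9 in 8 and Res WT female mouse 1 in 7. WDA WT male mouse 20 was the lowest of its group in 8, and Res WT male mouse 7 and Res KO male mouse 11 in 7 each. By contrast, WDA KO female mice 1, 2 and 3 were highest in 4, 3 and 2 genes. WDA KO male mice 16, 17 and 18 were highest in 2, 4 and 3. After subtracting group means, Pearson's r of log2 CPM over the 27 libraries was 0.80 for *Jun* with *Jund*, 0.73 for *Junb* with *Cebpb*, 0.72 for *Jun* with *Junb*, 0.69 for *Dusp1* with *Cebpb* and 0.68 for *Fos* with *Jun*. *Dusp6* had negative r to the AP-1 genes within groups, -0.68 to *Jund*, -0.48 to *Jun*, -0.47 to *Junb* and a weaker -0.21 to *Fos*. Without subtracting group means, Spearman's rho of *Dusp6* was -0.09 to *Jund*, -0.18 to *Jun*, -0.13 to *Junb* and 0.21 to *Fos*. *Egr1* had a within-group r of -0.25 to *Cebpb* and 0.39 to *Fos*. The values share library, depth and scaling, and are given as a description. Res WT female mouse 1 and the 3 Res KO females, with high *Jun*, *Dusp1* and *Cebpb*, also had the highest summed CPM of the 6 hepatocyte markers, at 155172 in mouse 1 and 143365 to 171847 in the KO females, against at most 111519 in the other 23 libraries. *Alb* alone averaged 129151 CPM in Res KO females, so the sum was mostly this gene. The part of this sum in the levels of the 9 genes was not tested.

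**Figure D2:**
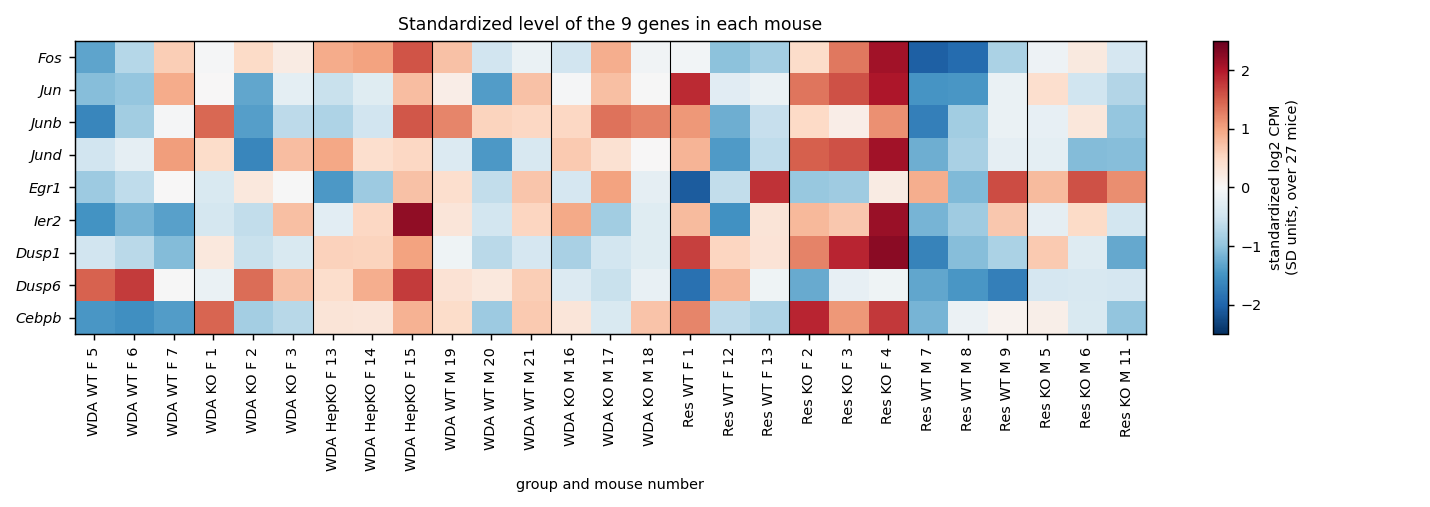
Level of the 9 genes (rows) in each of the 27 mice (columns, by group and mouse number), as log2 CPM standardized over the 27 mice (colour, in SD units). Res KO females and HepKO mouse 15 are high across most rows, Res WT males 7 and 8 are low, and *Egr1* and *Dusp6* depart from the other rows in Res WT female mouse 1.

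Among 13525 other genes, those whose levels ranked the 27 libraries most like each of the 9 were partly other immediate early genes. *Bhlhe40*, a circadian repressor, and *Btg2*, an antiproliferative gene, were nearest to *Jun* (Spearman's rho 0.84 for each), followed by *Akap17a* (0.81). *Pim3* (0.90) and *Csrnp1* (0.88) were among the nearest to *Cebpb*. *Spry4*, an inhibitor of receptor tyrosine kinase signalling to ERK, was nearest to *Dusp6* (0.90), followed by *Ermp1* (0.85) and *Plekha8* (0.83). *Slc25a25* (0.84), *Pdp2* (0.83) and *Irak2* (0.82) were nearest to *Dusp1*, and *Lrp12* (0.88), *Usp22* (0.88) and *Actg1* (0.87) to *Jund*. For *Fos* they were *Rdh9* (0.76), *Lrp12* (0.74) and *Apold1* (0.73), for *Junb* *Dctn1* (0.73), *Irf2bpl* (0.72) and *Bhlhe40* (0.72), and for *Ier2* *Pdcd2* (0.81), *Csrnp1* (0.78) and *Tat* (0.78). *Egr1* had the weakest neighbours, *BC034090* (0.69), *Cav2* (0.69) and *Tmem229a* (0.67). The mean standardized level of the 9 genes was ranked most alike by genes that included *Csrnp1* (0.86), *Bhlhe40* (0.79), *Frmd4b* (0.79) and *Kcnk5* (0.78).

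All 9 genes passed the filter on low counts in every comparison. Set side by side, their stage differences lay mostly above 0 in females and below 0 in males, a contrast that was not itself tested. Their median log2 fold change for Res against WDA was 0.50 in WT females and 0.98 in KO females, but -0.69 in WT males and -0.26 in KO males, with medians over all genes tested between -0.02 and 0.02. With KO against WT it was 0.78 in Res females, 0.39 in Res males, 0.41 in WDA females and 0.07 in WDA males, and with HepKO against WT it was 0.68. Without WDA KO male mouse 17 the median was -0.15 for Res against WDA in KO males and -0.10 for KO against WT in WDA males, and without WDA WT female mouse 7 it was 0.69 for Res against WDA in WT females, 0.51 for KO against WT in WDA females and 0.99 for HepKO against WT. Without Res WT female mouse 1, *Jun* (-0.17) and *Junb* (-0.06) turned below 0 for Res against WDA in WT females. *Jund* was then -0.83 and *Dusp6* -0.50, while *Ier2* was 0.36, *Cebpb* 0.57, *Egr1* 0.91 and *Dusp1* 1.12. The lean above 0 in WT females therefore depended on this mouse. These comparisons share groups: WDA WT females serve the WDA KO, HepKO and WT stage comparisons. When totals replaced TMM scaling, the median over all genes moved by -0.17 (KO against WT, Res females) to 0.21 (KO against WT, WDA males), and 6 of the 81 fold changes of single genes changed sign under some other setting, each of them at most 0.12 in size.

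**Figure D3:**
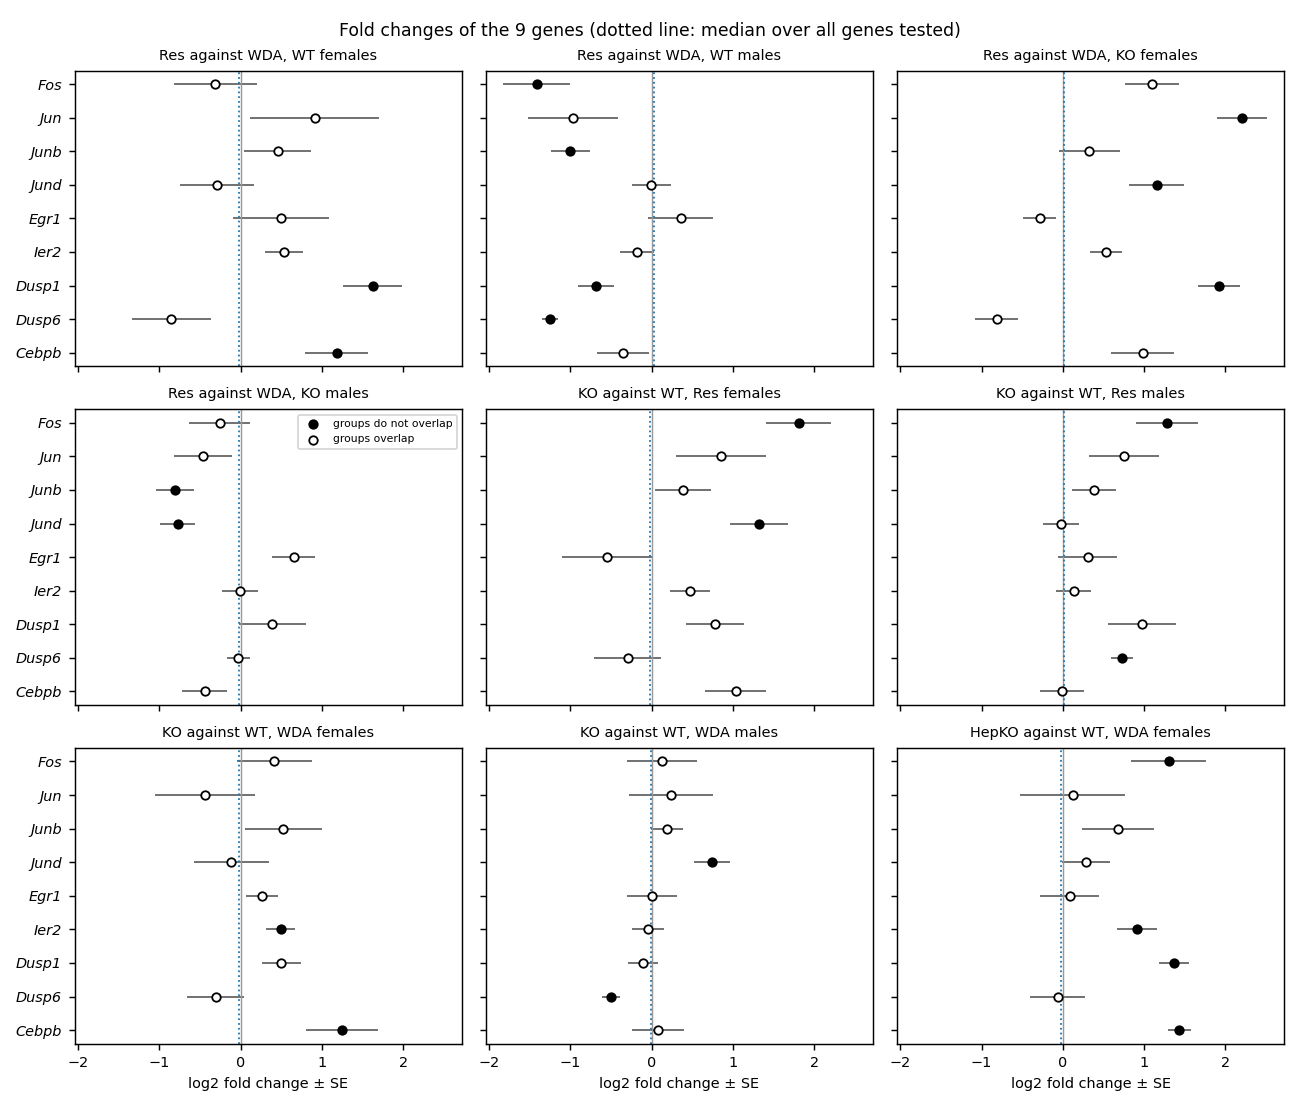
Log2 fold change ± SE of each of the 9 genes in the 9 comparisons of 2 groups (n = 3 mice each); filled points mark genes whose mice do not overlap between groups, and the dotted blue line is the median over all genes tested. The points lie mostly right of 0 for Res against WDA in KO females and left of 0 in WT males.

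With the edgeR quasi-likelihood test and Benjamini-Hochberg adjustment over all genes, Res against WDA in WT males called 11.0% of 12408 genes (5.98% lower, 4.99% higher) and 2 of the 9, *Junb* and *Dusp6*, both lower. *Dusp6* was also called without any 1 of the 6 mice, and *Junb* only without Res WT mouse 9, when 4 of the 9 were called among 1685 genes in all. With 1 spread over all groups 0 of the 9 were called in WT males, with library totals *Dusp6* alone, and by DESeq2 *Fos* and *Dusp1* in addition. In KO females 20.4% of 12470 genes were called (10.2% higher and 10.2% lower) and 4 of the 9, *Fos*, *Jun*, *Jund* and *Dusp1*, all higher. *Jun* and *Dusp1* were called without any 1 of the 6 mice, *Jund* in 3 of the 6 fits and *Fos* in 1. With 1 spread over all groups *Fos* and *Jund* were not called, with library totals *Fos* was not, and by DESeq2 *Jund* was not, while *Dusp6* was called lower with library totals, by DESeq2 and without the filter. In the fit of both sexes and vectors 28.5% of 13519 genes were called (13.1% higher, 15.3% lower), among them *Dusp1* (0.82 ± 0.30) and *Dusp6* (-0.73 ± 0.19). With library totals the share of called genes that were higher went from 45.5% to 72.1% in WT males and from 49.9% to 35.5% in KO females. The 9 genes were chosen with these contrasts known. Their calls, here and below, are therefore a description, and nothing is read from them.

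Counts of genes of the 9 whose groups did not overlap stood beside the following shares of all genes tested. For Res against WDA they were 2 in WT females (*Dusp1* and *Cebpb*, higher; all genes 20.4%), 4 in WT males (*Fos*, *Junb*, *Dusp1* and *Dusp6*, lower; 36.0%), 3 in KO females (*Jun*, *Jund* and *Dusp1*, higher; 40.4%) and 2 in KO males (*Junb* and *Jund*, lower; 12.9%). With KO against WT they were 2 in Res females (26.2%), 2 in Res males (4.64%), 2 in WDA females (8.81%) and 2 in WDA males (16.3%), and with HepKO against WT 4 (18.6%). Since the 9 genes were chosen with these contrasts known, nothing is read from the counts.

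In each of the remaining fits edgeR called 0% of genes and 0 of the 9. Res against WDA gave 1716 genes at an unadjusted p under 0.05 in WT females, of 12603, and 819 in KO males, of 12747, and DESeq2 called 404 (*Dusp1* among them) and 79 (none of the 9). KO against WT gave 2413 such genes in Res females (DESeq2 636, with *Fos*, *Jund* and *Cebpb*), 183 in Res males (DESeq2 7, with *Dusp6*), 385 in WDA females (DESeq2 8) and 958 in WDA males (DESeq2 17). HepKO against WT gave 1249 (DESeq2 230, with *Dusp1* and *Cebpb*). The fit of KO in Res mice of both sexes gave 1035 (DESeq2 6, with *Fos*) and the KO-by-sex interaction 1512 (DESeq2 85). In Res both sexes *Fos* had a log2 fold change of 1.56 ± 0.29, *Dusp1* 0.88 ± 0.31 and *Jun* 0.80 ± 0.39. The interaction was largest in *Jund* at 1.35 ± 0.47, with the KO difference higher in females, followed by *Cebpb* at 1.05 ± 0.52 and *Dusp6* at -1.01 ± 0.48. Without Res WT female mouse 1, 852 genes were called in KO against WT of Res females. Among them were 5 of the 9 (*Fos*, *Jun*, *Jund*, *Dusp1* and *Cebpb*). *Jund* was then also called in the interaction, among 241 genes. Without WDA WT female mouse 7, 349 genes were called in HepKO against WT, with 4 of the 9 (*Fos*, *Jund*, *Dusp1* and *Cebpb*). All of these calls of the 9 were higher.

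The 9 were set beside a list of 44 other immediate early genes. This list, like those below, was chosen with earlier results of these data known. Its counts and p-values are a description and no independent support for the 9. In KO females, 18 of the 39 tested were higher in Res than in WDA and 0 lower, with a median log2 fold change of 0.86 against 0.01 over all genes. Over all genes 10.2% were higher and 10.2% lower there. *Plk3*, a stress-activated kinase, was 66.8, 108 and 151 CPM in Res against 17.5, 18.9 and 46.6 CPM in WDA (1.98 ± 0.39, adjusted p = 0.00884, edgeR). *Per1*, a clock gene that is also induced acutely, was 92.1, 95.6 and 131 CPM against 23.4, 23.9 and 41.1 CPM (1.85 ± 0.23, adjusted p = 0.00162, edgeR). *Myc* (1.84 ± 0.36, adjusted p = 0.00901) and *Cebpd*, the partner of *Cebpb* (1.77 ± 0.26, adjusted p = 0.00323), rose as well by the edgeR test. In WT males 4 of 39 rose and 4 fell, with a median of -0.13, where 4.99% of all genes rose and 5.98% fell. *Egr2* (1.76 ± 0.35, adjusted p = 0.0223), *Tnfaip3*, *Plk2* and *Btg1* were higher and *Nr4a1* (-1.46 ± 0.37, adjusted p = 0.0412), *Maff*, *Ccn1* and *Klf10* lower by the same test. *Ccn1*, a secreted matrix protein, was 2.79, 3.59 and 4.395 CPM in Res WT males after 8.15, 8.17 and 9.46 CPM in WDA. The WT male count was 0 without WDA WT mouse 21 and 16 without Res WT mouse 9, and the KO female count was 13 to 24 without 1 mouse.

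**Figure D4:**
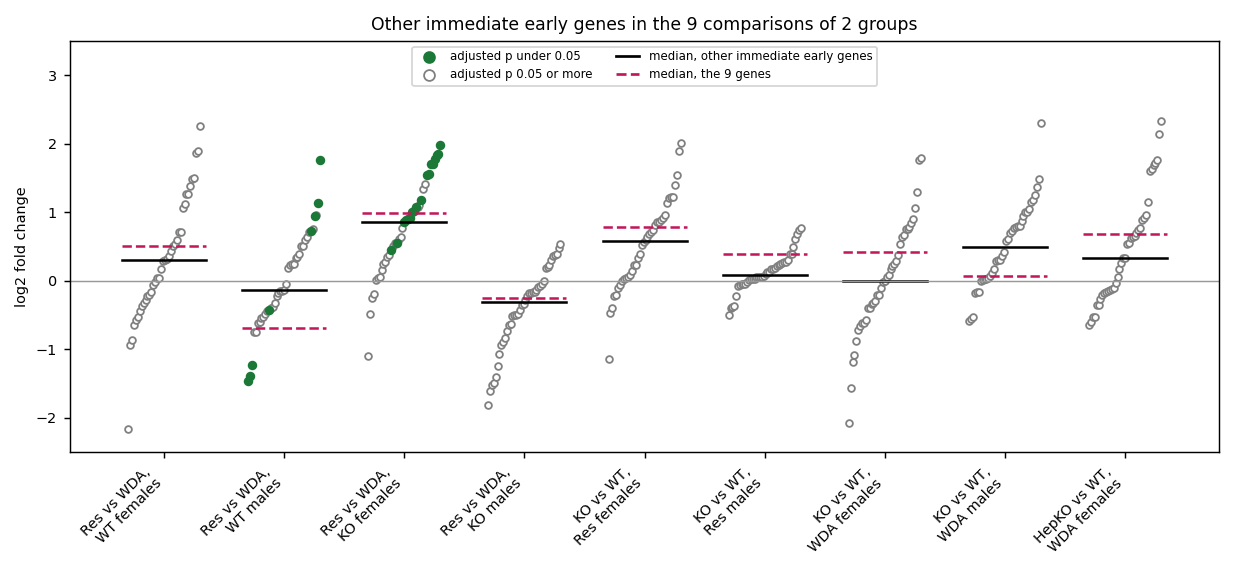
Log2 fold changes of the other immediate early genes tested (points, sorted within each comparison), filled green where the edgeR adjusted p was under 0.05, with their median (black line) and the median of the 9 genes (dashed magenta line). Called genes appear in Res against WDA for WT males, 4 on each side of 0, and for KO females, 18 above 0.

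In the fit of both sexes and vectors 3 of 42 rose (*Per1*, *Cebpd* and *Gadd45b*) and 3 fell (*Maff*, *Nr4a2* and *Ccn1*). Over all genes 13.1% rose and 15.3% fell in that fit. In the other fits edgeR called 0 of 38 to 41, with 2 to 17 at an unadjusted p under 0.05. By DESeq2 the count was 9 in KO against WT of Res females, 7 in HepKO against WT, 6 in Res against WDA of WT females, 1 in KO males, 1 in the interaction and 0 in the others. *Atf3*, a stress-induced factor of the same leucine zipper class, shows how single mice weigh on these values. It was 36.8 CPM in WDA WT female mouse 7 and 1.60 and 2.45 CPM in the other mice of the group.

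Among 17 other dual-specificity phosphatases and ERK feedback genes, the differences of Res against WDA fell on separate sides. *Spry4* fell in WT males (-0.72 ± 0.16, adjusted p = 0.0292, edgeR) and in KO females (-1.26 ± 0.39, adjusted p = 0.0475, edgeR), as *Dusp6* was lower there. *Phlda1* fell in WT males from 44.7, 51.8 and 82.8 CPM to 11.4, 12.98 and 13.9 CPM (-2.20 ± 0.23, adjusted p = 0.00345, edgeR). *Dusp8*, *Dusp2* and *Dusp10*, phosphatases acting on JNK, p38 or ERK, rose in KO females. *Dusp8* was 12.2, 13.8 and 24.5 CPM after 0.494, 1.80 and 5.31 CPM (2.74 ± 0.56, adjusted p = 0.0105, edgeR), and *Dusp10* 7.42, 8.62 and 8.87 CPM after 3.29, 3.38 and 3.42 CPM (1.30 ± 0.16, adjusted p = 0.00171, edgeR). In counts, 0 rose and 2 fell of 14 in WT males, 3 rose and 1 fell of 15 in KO females, and 1 rose (*Dusp2*) and 4 fell (*Phlda1*, *Spry4*, *Etv5* and *Spred2*) of 16 in both sexes and vectors. Of all genes, 11.0%, 20.4% and 28.5% were called in these fits, in the same order.

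Of 23 other leucine zipper factors, 0 rose and 2 fell (*Cebpe* and *Maff*) of 19 tested in WT males, and 4 rose (*Cebpd*, *Jdp2* and *Atf4* among them) and 1 fell (*Atf5*) of 19 in KO females. In the fit of both sexes and vectors 1 of 22 rose and 3 fell. Of 28 genes of the MAP kinase cascade and its direct target factors, 2 of 27 rose in WT males (*Elk1* and *Braf*) and 0 fell. In KO females 5 of 27 rose, among them *Map2k6*, the p38 kinase kinase (1.84 ± 0.26, adjusted p = 0.0025, edgeR), *Elk4*, *Srf* and *Mapk14*, and 3 fell, *Rps6ka1*, *Mapk3* and *Araf*. In both sexes and vectors 6 of 28 rose and 2 fell. Over all genes, 4.99% rose and 5.98% fell in WT males, and 10.2% rose and 10.2% fell in KO females. The fit of both sexes and vectors had 13.1% of all genes higher and 15.3% lower. The lists overlap, and a gene in several lists is counted in each. *Cebpd* and *Maff* here, *Srf* in the MAP kinase list and *Per1* in the clock list below are also among the other immediate early genes.

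Clock genes moved with stage in the same samples. In WT males *Dbp* fell from 41.9, 46.3 and 56.7 CPM to 1.83, 2.08 and 3.71 CPM (-4.21 ± 0.25, adjusted p = 0.000369, edgeR), and *Nr1d1* fell as well (-3.15 ± 0.18, adjusted p = 0.000369, edgeR), while *Npas2*, *Arntl*, *Cry1* and *Nfil3* rose, 4 up and 4 down of 15. In KO females 7 rose, led by *Ciart* (3.27 ± 0.28, adjusted p = 0.000317, edgeR), and 2 fell, *Npas2* and *Nr1d1*, and in both sexes and vectors 4 rose and 3 fell. For these genes and the markers below, the shares of all genes called were 11.0% in WT males and 20.4% in KO females. The share in both sexes and vectors was 28.5%. No time of day of liver collection is given in the labels, and its part in the levels of the 9 genes was not tested. Markers of other cell types also moved with stage. In KO females 2 of 4 neutrophil markers tested (*S100a8* and *S100a9*), 2 of 5 recruited macrophage markers, 2 of 5 Kupffer cell markers and 3 of 6 hepatocyte markers rose, and in WT males 3 of 3 neutrophil and 2 of 5 recruited macrophage markers rose, with 1 of 5 endothelial (*Lyve1*), 1 of 2 cholangiocyte (*Sox9*) and 1 of 5 T and B cell markers (*Cd3e*). Of the 5 endothelial markers in WT males, 3 lay below 0, with a list median of -0.30. In both sexes and vectors 5 of 5 T and B cell, 2 of 4 neutrophil, 2 of 5 endothelial, 2 of 6 hepatocyte and 1 of 5 Kupffer cell markers rose, and none of any list fell by the edgeR test. The summed level of the 5 neutrophil markers was 12.2 to 27.9 CPM in Res KO females and 5.07 to 11.1 CPM in WDA KO females, 7.94 to 14.8 CPM in Res WT males and 4.499 to 5.26 CPM in WDA WT males, with 0 of the markers absent from a whole group. Their part in the changes of the 9 genes was not tested.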

How the data were processed

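RNA from whole liver of 27 mice was sequenced on the BGISEQ platform, with each library 1 mouse and its group taken from its label. Per the labels' processing notes and the study's methods, HISAT aligned reads to the mouse genome (GRCm38.p6) and Bowtie2 aligned them to reference genes. The tool for the gene values is not given in the sources used here. The authors deposited an estimated count per gene and library, not normalized, and an FPKM value scaled by transcript length and library total. FPKM served only to order the genes by level.

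Estimated counts were rounded to whole numbers and tested in R 4.3.3 with edgeR 4.0.16 (filterByExpr, minimum count 10, TMM scaling, glmQLFit and glmQLFTest), with Benjamini-Hochberg adjustment at 0.05 over all genes. Each comparison of 2 groups used its own mice. The fits of both sexes had sex (and vector) as covariates, and the interaction was the KO difference in Res females minus that in Res males. The SE is the size of a log2 fold change divided by the root of its F value. Log2 CPM used a prior count of 2. The fit was tested on simulated data, where 200 genes changed by a known amount for KO against WT in Res females. Precision rests on 3 mice per group. Genes missing from a table were given a count of 0 there.

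The 9 genes and all lists were chosen with earlier results of these data known. From each list the text names at most 4 called genes per direction, ordered by log2 fold change, and for likeness up to 3 genes for each of the 9 and up to 5 for their mean. A gene that these limits would name is not reported here. *Atf3* was named after its values were seen. Alternatives were RLE scaling, library totals, DESeq2 1.42.0, no filter, 1 spread shared by all groups and leaving out each mouse. Promoters come from RefSeq, and motifs were searched in the 250 bases before the start.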

Additional observations from a re-analysis of the deposited data

Results flagged for a closer look

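For 3 gene differences, the mice of both groups lay apart in each of 2 comparisons but in opposite directions. *Jund* was higher in Res than in WDA in KO females and lower in KO males, log2 fold changes that differed by 1.93. *Dusp1* was higher in Res in WT females and lower in WT males, a difference of 2.31. *Dusp6* was higher in KO than in WT in Res males and lower in WDA males, a difference of 1.23. The differences themselves were not tested. Among all genes tested, groups lay apart in 40.4% (KO females), 12.9% (KO males), 20.4% (WT females) and 36.0% (WT males) for Res against WDA. For KO against WT the shares were 4.64% in Res males and 16.3% in WDA males. The share of all genes lying apart in opposite directions was not computed. The 9 genes were chosen with these contrasts known, so nothing is read from this count. In Res mice, 0 of the 9 genes passed the edgeR test of the KO-by-sex interaction.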

How the results depend on the processing

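No paired analysis was possible because the mouse numbers belong to different animals of different experiments and pair none of them. Over all genes, DESeq2 called 404 genes (Res against WDA, WT females), 79 (KO males), 636 (KO against WT, Res females), 7 (Res males), 8 (WDA females), 17 (WDA males), 230 (HepKO against WT), 6 (KO in Res, both sexes) and 85 (interaction), where edgeR called 0. Its counts of other immediate early genes were 6, 1, 9, 7 and 1 in Res against WDA of WT females and KO males, KO against WT of Res females, HepKO against WT and the interaction. With 1 spread over all groups the all-gene counts in the same order were 840, 102, 670, 49 (HepKO), 26 (both sexes) and 9 (interaction), with 308 in place of 1361 in Res against WDA of WT males and 1558 in place of 2550 in KO females. The list counts were then 6 (Res against WDA, WT females), 1 (WT males), 4 (KO against WT, Res females) and 1 (HepKO). Library totals gave 814 genes and 5 of the list in WT males. Without the filter there were 2 genes (KO males), 1 (KO against WT, Res females), and 7 genes with 2 of the list (HepKO). The cause of these changes was not tested.

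Leaving out 1 mouse at a time, Res against WDA gave 0 to 15 genes in WT females (15 without WDA mouse 7), 106 to 1685 in WT males (106 without WDA mouse 21), 1026 to 2292 in KO females (1026 without Res mouse 4) and 0 to 10 in KO males (10 without WDA mouse 17). KO against WT in Res females gave 0 to 852 and the interaction 0 to 241, the highest of each without Res WT female mouse 1. HepKO against WT gave 0 to 349, the highest without WDA WT female mouse 7. The list counts ranged from 0 to 16 in WT males, 0 to 6 in KO against WT of Res females and 0 to 10 in HepKO against WT. Of the 9 genes, 5 were called in KO against WT of Res females without Res WT mouse 1, and 4 in HepKO against WT without WDA WT mouse 7. Over the 81 fold changes of the 9 genes, 405 values under the 5 other settings included 1 that moved by more than 1 SD between replicates and 7 of opposite sign. Of 486 values without 1 mouse, 11 moved so far and 52 had the opposite sign, the largest of them *Jun* in Res against WDA of WT females, 0.91 with and -0.17 without Res mouse 1. No called fold change of the 9 changed sign in these settings.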
